A study of Mus musculus with 2 samples.

Results

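Il2ra, Il15ra and Il2rb encode receptor chains for interleukin 2 (IL-2) and interleukin 15 (IL-15), and the reads of STAT5 and STAT3 over these 3 genes are described here. They were chosen by name and position, not by a measured value, but with earlier results of these data known. On mm9, Il2ra and its neighbour Il15ra were read in a window on chromosome 2 from 11480000 to 11680000, and Il2rb in a window on chromosome 15 from 78280000 to 78360000. The windows held 77 of the 91933 sites found by the same rule over the nuclear genome, 57 around Il2ra and Il15ra and 20 around Il2rb.

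Il2ra encodes the alpha chain (CD25), which binds IL-2 and gives the receptor its high affinity. Il2rb encodes the beta chain (CD122), which IL-2 and IL-15 share and which, with the common gamma chain, carries the signal through JAK1 and JAK3 to STAT5. Il15ra encodes the private alpha chain of IL-15, often presented to neighbouring cells together with its ligand. In T cells, IL-2 raises the expression of its own alpha chain through STAT5, whereas IL-6 signals mainly through STAT3.

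Both libraries came from T helper 17 (Th17) cells, CD4 T cells that make IL-17, grown from sorted naive CD4 T cells of wild type C57BL/6J mice over 3 days. Per the labels, the culture contained TGF-beta (2 ng/ml), IL-6 (20 ng/ml), plate-bound antibodies to CD3 and CD28, and antibodies to IL-4 and IL-2. The anti-IL-2 amount is in IU/ml, the unit in which IL-2 protein is dosed, and the labels do not settle which of them was added. The STAT5 library followed 30 minutes of IL-2 (200 IU/ml) and was made with antibodies to STAT5a and to STAT5b, mixed. The STAT3 library followed 30 minutes of IL-6 (40 ng/ml) and was made with an antibody to STAT3. Antibody and cytokine changed together, so their effects on the reads cannot be told apart. There was 1 library per antibody and no input library was analysed here. Every difference below therefore compares these libraries without a replicate check, and all intervals of ratios are exact 95% intervals that cover counting error only. No expression was measured, so the Th17 label was not checked against marker genes.

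The libraries held 17963766 STAT5 and 20784388 STAT3 reads on nuclear chromosomes, and levels are given in RPM, reads scaled to a total of 1000000. A site is a 200 bp window with at least 1 RPM in either library that is the highest within 400 bp on either side. Its reads were counted in 400 bp around the centre, where at most 800 reads (positions and strands) can be seen. A site was called higher with STAT5 or STAT3 when the interval of the ratio of RPM lay wholly beyond 2-fold. Over all 91933 sites, 24.9% were higher with STAT5 by this rule and 2.40% with STAT3. The median site had 42 STAT5 reads and 38 STAT3 reads.

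Sites of both libraries lay on either side of the Il2ra start, so the promoter sequences of the alpha chain genes are shown with the letters that STAT proteins are known to prefer, TTCNNNGAA. This motif reads the same on both strands, so 1 strand was searched. The sequences are from RefSeq on GRCm38.p6, run from 250 bases before to 50 after the annotated start, and were matched by symbol for 2 of the 3 genes. Their coordinates were not carried over to mm9. Capitals mark each TTC and each GAA, the arms of the motif.

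Il2ra promoter (GRCm38.p6, plus strand, chr2:11642542-11642841): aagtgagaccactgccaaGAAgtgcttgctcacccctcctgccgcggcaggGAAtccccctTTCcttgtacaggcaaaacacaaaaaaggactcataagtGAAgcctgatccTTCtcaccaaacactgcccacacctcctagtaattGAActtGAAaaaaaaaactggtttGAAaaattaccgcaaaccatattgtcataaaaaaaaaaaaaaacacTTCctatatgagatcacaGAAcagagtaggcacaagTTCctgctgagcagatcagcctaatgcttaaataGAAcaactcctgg

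Il15ra promoter (GRCm38.p6, plus strand, chr2:11705043-11705342): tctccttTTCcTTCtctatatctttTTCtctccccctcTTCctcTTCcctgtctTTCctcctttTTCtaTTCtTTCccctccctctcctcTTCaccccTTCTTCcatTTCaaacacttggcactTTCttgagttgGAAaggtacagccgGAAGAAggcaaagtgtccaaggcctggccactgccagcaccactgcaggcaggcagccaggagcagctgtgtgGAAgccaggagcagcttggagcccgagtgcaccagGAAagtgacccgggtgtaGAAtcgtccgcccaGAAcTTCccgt

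Neither promoter held the whole motif, nor did the promoter at the second listed Il15ra start. The Il2ra promoter had 4 TTC and 8 GAA, but no TTC was followed by a GAA after 3 bases, as the motif needs. Of all 32851 RefSeq promoters of this length 8.30% held the motif. A list of 11 genes of the pathway was searched (Il2, Il15, Il2rg, Jak1, Jak3, Stat3, Stat5a, Stat5b, Cish, Socs1 and Socs3). By symbol 10 of these genes were matched, and 2 held the motif in a listed promoter. Stat5a and Stat5b had 2 listed promoters each, so this share of genes is unlike the share of promoters. Cish, a feedback inhibitor of STAT5 signalling, had TTCCTGGAA and TTCTTGGAA, and Socs3, a feedback inhibitor of STAT3 signalling, had TTCTTAGAA. These matches describe letters only, and their absence from a window of 300 bases says nothing of the factors.

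The Il2ra locus was among the places with most STAT5 reads in the genome. Its 200 kb window held 16191 STAT5 reads and 7120 STAT3 reads, against medians of 654 STAT5 and 964 STAT3 reads over 13197 bins of 200 kb. Leaving out bins that overlap the window, only 6 bins had as many STAT5 reads, and 131 had as many STAT3 reads. The window's ratio of STAT5 to STAT3 RPM was 2.63 (2.56 to 2.71). Its 57 sites compared with a median of 2 per bin, and 31 of the other bins had as many.

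Reads in this window were concentrated upstream of Il2ra and in the gene, and thinned out towards Il15ra. Gene positions are the rounded mm9 values of the selection rule, which put Il2ra from 11564000 to 11615000 and Il15ra from 11626000 to 11657000. Within Il2ra there were 7472 STAT5 and 3457 STAT3 reads, or 8.16 and 3.26 RPM per kb, and the ratio was 2.501 (2.402 to 2.604). The 84 kb upstream held 7989 STAT5 and 2897 STAT3 reads, 5.29 and 1.66 RPM per kb, with a ratio of 3.19 (3.06 to 3.33). Both stretches were thus higher with STAT5 by more than counting error. Upstream names a position only. On GRCm38.p6 the protein-coding gene before Il2ra is Rbm17, and its place on mm9 was not determined. Which gene the upstream sites belong to was therefore not determined.

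The 11 kb between the genes had 313 STAT5 and 217 STAT3 reads, a ratio of 1.67 (1.40 to 1.99). Within Il15ra the libraries had 327 STAT5 and 365 STAT3 reads, 0.587 and 0.566 RPM per kb, and the interval of the ratio included 1 (1.04, 0.890 to 1.21). The 23 kb after Il15ra held 90 STAT5 and 184 STAT3 reads, and here the ratio lay below 1 (0.566, 0.435 to 0.732). Scaling the libraries by 10 kb bins without a site gave ratios of 1.42 within Il15ra and 0.777 after it, so the near equality at Il15ra depends on the scaling. Per kb, Il15ra was 1.39-fold over the genome mean for STAT5 and 1.34-fold for STAT3, while Il2ra was 19.2-fold and 7.70-fold over it. Among 51789 bins as long as Il2ra, outside the gene, 6 had as many STAT5 reads and 103 as many STAT3 reads. Among 85212 bins as long as Il15ra, 14121 had as many STAT5 reads and 15757 as many STAT3 reads. The adjacent alpha chain genes thus stood far apart in both libraries.

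**Figure D1:**
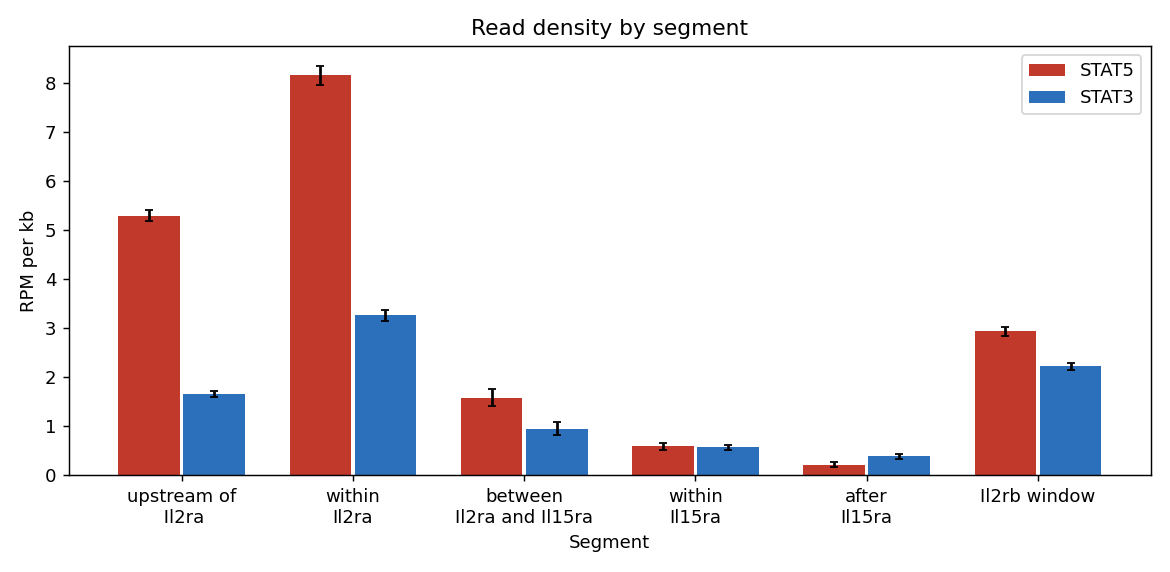
RPM per kb (y axis) of STAT5 (red) and STAT3 (blue) in 5 segments around Il2ra and Il15ra and in the Il2rb window (x axis). Bars are single libraries. Error bars are 95% counting errors from the normal approximation, not exact intervals. STAT5 density was 8.16 RPM per kb within Il2ra and 0.587 within Il15ra.

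Of the 57 sites around Il2ra and Il15ra, 27 (47.4%) were called higher with STAT5 and 0 with STAT3, beside 24.9% and 2.40% of all sites. Over the genome the called share was 39.4% of sites with 50 or more STAT5 reads, 52.9% with 100 or more and 67.9% with 250 or more. Among sites with 250 or more STAT5 reads, a limit set after the data were seen, 11 of 16 in this window (68.8%) were higher with STAT5, close to the 67.9% of 5900 such sites in the genome. In the window 21 of 36 sites with 50 or more STAT5 reads (58.3%) were called, and 17 of 25 with 100 or more (68%). The window share was thus above that of the genome at the lower limits and close to it at 250. By segment, 17 of 24 sites upstream of Il2ra were called higher with STAT5, 9 of 27 within Il2ra, 0 of 2 between the genes and 1 of 4 within Il15ra. The median ratio was 4.62 over the upstream sites and 2.09 over those within Il2ra, against 1.23 over all sites of the genome. These groups differ in height, with a median of 195 STAT5 reads upstream, 52 within Il2ra and 42 over the genome. Genome sites with 50, 100 and 250 or more STAT5 reads had median ratios of 1.88, 2.82 and 3.75. The difference between the segments was not separated from site height.

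**Figure D2:**
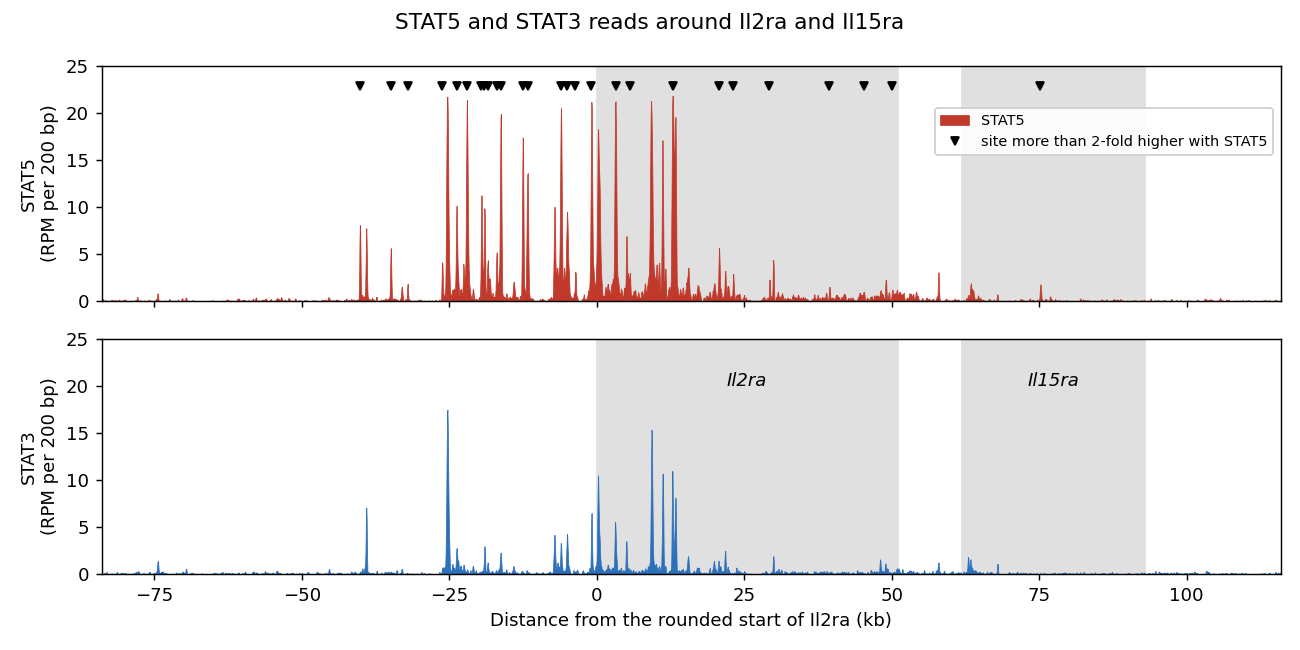
RPM in 200 bp windows of STAT5 (upper, red) and STAT3 (lower, blue) against distance from the rounded Il2ra start in kb, with the genes shaded and sites called higher with STAT5 marked by triangles. Of 57 sites 27 carry a triangle, 17 of them upstream of Il2ra, where several tall STAT5 sites have little STAT3 signal.

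Upstream of Il2ra, tall STAT5 sites with many and with few STAT3 reads lay within a few kb of each other. The site 25.3 kb upstream (chr2:11538601-11538800) had 673 STAT5 and 579 STAT3 reads, which is 37.5 and 27.9 RPM, and a ratio of 1.34 (1.20 to 1.51). It was the tallest STAT3 site of either window, and only 49 sites of the genome had as many STAT3 reads and 109 as many STAT5 reads, itself included. A site 22.0 kb upstream (chr2:11541901-11542100) had 582 STAT5 reads and 15 STAT3 reads, 32.4 and 0.722 RPM, a ratio of 44.9 (27.0 to 80.7), or 29.8 in 1000 bp. These sites were close in STAT5 reads, while the first had a STAT3 count reached by 49 sites and the second one reached by 73736. Between them, a site 23.7 kb upstream, named after its values were seen, was intermediate, with 258 STAT5 and 80 STAT3 reads (3.73, 2.89 to 4.86). The plus and minus strands gave 296 and 286 STAT5 reads at the 22.0 kb site, and 8 and 7 STAT3 reads.

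The same contrast was seen farther upstream. A site 40.1 kb upstream (chr2:11523751-11523950) had 168 STAT5 and 7 STAT3 reads, a ratio of 27.8 (13.2 to 70.1). At 39.0 kb upstream, a site named after its values were seen had 167 STAT5 and 168 STAT3 reads, a ratio of 1.15 (0.923 to 1.43). The pair lies about 1 kb apart with nearly equal STAT5 reads. At 34.9 kb upstream there were 115 STAT5 and 9 STAT3 reads (ratio 14.8, 7.52 to 33.2), and the ratio was 7.58 in 1000 bp.

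Further sites with few STAT3 reads lay between 20 and 11 kb upstream. At 12.5 kb upstream (chr2:11551351-11551550) the counts were 412 STAT5 and 11 STAT3 reads and the ratio was 43.34 (23.97 to 87.49). At 11.7 kb upstream (chr2:11552201-11552400) the counts were 348 STAT5 and 13 STAT3 reads, with a ratio of 31.0 (17.9 to 58.8), or 56.5 in 200 bp. The site at 19.5 kb upstream had 267 STAT5 and 11 STAT3 reads (28.1, 15.4 to 56.9), which depends on the counting width, since a neighbour named after its values were seen, centred on 11544951, had 222 STAT5 and 75 STAT3 reads. In 200 bp the ratio at 19.5 kb was 46.7. In 1000 bp it was 9.96 at 19.5 kb, and at 40.1 kb 9.78. Of the 16 sites of the window with 250 or more STAT5 reads, 4 had a ratio of 25 or more, against 6.90% of such sites in the genome, a limit also set after the data were seen.

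STAT3 reads were present but fewer at other upstream sites. The site 16.2 kb upstream (chr2:11547651-11547850) had 486 STAT5 and 64 STAT3 reads, a ratio of 8.79 (6.76 to 11.6), and a smaller site 16.9 kb upstream had 118 and 13 (10.5, 5.91 to 20.3; 21.5 when reads were counted in 200 bp). At 6.05 kb upstream (chr2:11557851-11558050) the counts were 555 STAT5 and 88 STAT3 reads and the ratio was 7.30 (5.82 to 9.24). The lowest ratio upstream was at the outermost site, 74.4 kb from the start, with 15 STAT5 and 40 STAT3 reads (0.434, 0.223 to 0.803), which was not called. The stretch between this site and the one at 40.1 kb held no site.

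At the Il2ra start itself both libraries were high. The site 0.899 kb upstream (chr2:11563001-11563200) had 553 STAT5 and 154 STAT3 reads, a ratio of 4.15 (3.47 to 5.00). A site at 0.201 kb after the rounded start, named because of its place, had 507 STAT5 and 295 STAT3 reads, a ratio of 1.99 (1.72 to 2.30), and was not called. The start is known here to the nearest kb only, so which of the pair covers the promoter was not determined.

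Inside Il2ra the tall sites lay in the first 14 kb and carried both STATs. The site at 3.20 kb (chr2:11567101-11567300) had 633 STAT5 and 165 STAT3 reads, with a ratio of 4.44 (3.73 to 5.30). At 9.20 kb (chr2:11573101-11573300) the counts were 656 STAT5 and 401 STAT3 reads, with a ratio of 1.89 (1.67 to 2.15). The tallest STAT5 site of either window, at 12.9 kb (chr2:11576751-11576950), had 681 STAT5 and 267 STAT3 reads, a ratio of 2.95 (2.56 to 3.41), and 96 sites of the genome had as many STAT5 reads. Such counts take up to 85.1% of the 800 possible, which compresses the ratios: corrected for positions already taken, they became 7.85, 2.85 and 5.43 at these 3 sites. In 200 bp the ratio at 12.9 kb was 2.01 without this correction, so that its interval no longer lies beyond 2-fold and the call is lost. The ceiling is lower in 200 bp than in 400 bp, and STAT5 stood near it there, at 21.8 RPM. Scaling by bins without a site gave 2.60 at 9.20 kb, a value beyond 2-fold. The correction for positions taken gave 79.5 at 22.0 kb upstream, 11.7 at 6.05 kb upstream and 6.36 at 0.899 kb upstream.

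Beyond the first 14 kb the sites within Il2ra were smaller. At 23.2 kb there were 62 STAT5 and 5 STAT3 reads (14.3, 5.83 to 45.7), and at 29.3 kb 45 STAT5 reads met 1 STAT3 read (52.1, 8.88 to 2102). Those ratios rest on few reads and moved with the counting width, to 6.36 and 6.42 in 1000 bp, and to 60.2 in 200 bp at 23.2 kb. Across the 57 sites of the window, STAT5 and STAT3 reads correlated with Spearman's rho = 0.537, against 0.718 over the 20 Il2rb sites and 0.391 over all sites, a description in which sites share their libraries. The tallest 5 sites held 31.5% of the STAT5 reads in sites and 47.2% of the STAT3 reads in sites, and 50% of these reads lay in 9 sites for STAT5 and 6 for STAT3.

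**Figure D3:**
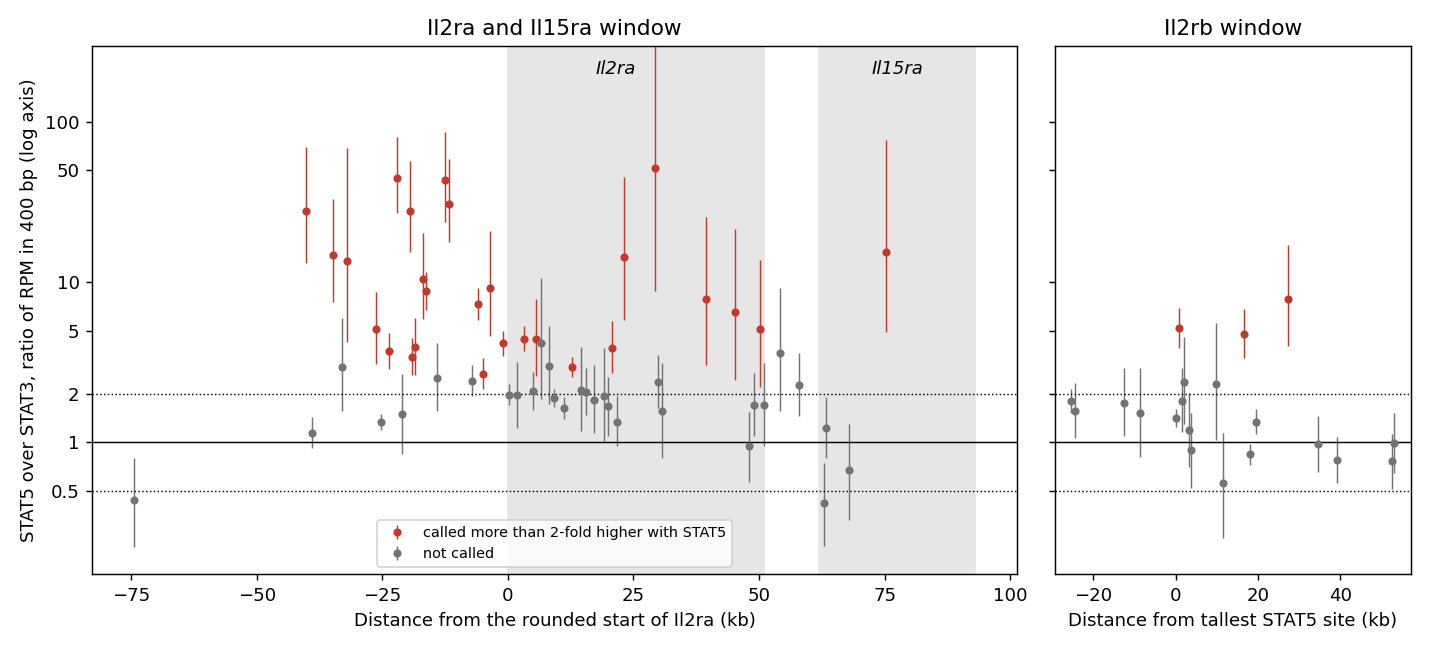
Ratio of STAT5 to STAT3 RPM in 400 bp (log axis) at each site against distance in kb, with exact 95% intervals; red points are called higher with STAT5, grey ones are not called, dotted lines mark 2-fold, and 1 interval is cut at the top. Ratios upstream of Il2ra range from 0.434 to 44.9, and those in the Il2rb window from 0.555 to 7.87.

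Around Il15ra the sites were small. The 4 sites within Il15ra had 15 to 46 STAT5 and 3 to 47 STAT3 reads. The tallest by STAT5, 1.40 kb after the rounded start (chr2:11627301-11627500), had 46 STAT5 and 43 STAT3 reads, a ratio of 1.24 (0.799 to 1.92). Its neighbour 0.951 kb after the start, named because of its place, had 17 STAT5 and 47 STAT3 reads (0.418, 0.225 to 0.742) and was not called. The only called site within Il15ra, at 13.2 kb (chr2:11639101-11639300), had 40 STAT5 and 3 STAT3 reads, a ratio of 15.4 (4.91 to 78.0). Between the genes, 4.05 kb before the Il15ra start, a site had 61 STAT5 and 31 STAT3 reads (2.28, 1.45 to 3.63). No site lay in the 23 kb after Il15ra.

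The Il2rb window, 80 kb long, was also dense in reads, with the libraries closer to each other than at Il2ra. It held 4214 STAT5 and 3690 STAT3 reads, a ratio of 1.32 (1.26 to 1.38), against medians of 233 STAT5 and 364 STAT3 reads over 33008 bins of 80 kb. As many STAT5 reads were found in 235 bins and as many STAT3 reads in 215. Of its 20 sites, 3 (15%) were called higher with STAT5 and 0 with STAT3, beside 24.9% and 2.40% of all sites. With 50 or more STAT5 reads 3 of 10 sites (30%) were called, against 39.4% of such sites in the genome. With 100 or more it was 2 of 6 (33.3%) against 52.9%, and with 250 or more 1 of 5 (20%) against 67.9%. The median ratio over the 20 sites was 1.47. The position of the gene inside this window was not given on mm9, so sites are placed from the tallest STAT5 site. Il2rb sites here means sites of this window, and which of them lie in or near the gene was not determined. On GRCm38.p6 the protein-coding neighbours of Il2rb are Tmprss6 and C1qtnf6.

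The tallest Il2rb sites carried both STATs. The first (chr15:78306051-78306250) had 517 STAT5 and 420 STAT3 reads, a ratio of 1.42 (1.25 to 1.62). A site 18.1 kb from it (chr15:78324101-78324300) had 295 STAT5 and 406 STAT3 reads, a ratio of 0.841 (0.721 to 0.979), which became 1.15 when the libraries were scaled by bins without a site. At 19.4 kb (chr15:78325501-78325700) there were 260 STAT5 and 223 STAT3 reads (1.35, 1.12 to 1.62), and at 25.4 kb before the first site (chr15:78280651-78280850) 344 and 220 (1.81, 1.52 to 2.15). None of these 4 was called, although at each the interval left out 1. Scaling by bins without a site gave 2.48 at the site 25.4 kb before the first, which is beyond 2-fold.

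The 3 Il2rb sites called higher with STAT5 were lower than the tallest, and 2 of them are named here after their values were seen. A site 0.8 kb from the tallest (chr15:78306851-78307050) had 273 STAT5 and 61 STAT3 reads, a ratio of 5.18 (3.91 to 6.95), or 12.4 in 200 bp and 3.42 in 1000 bp. At 16.6 kb there were 172 STAT5 and 42 STAT3 reads (4.74, 3.36 to 6.81), and at 27.3 kb 68 and 10 (7.87, 4.03 to 17.1). As upstream of Il2ra, a site with more STAT5 lay next to one with both, here within 1 kb.

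**Figure D4:**
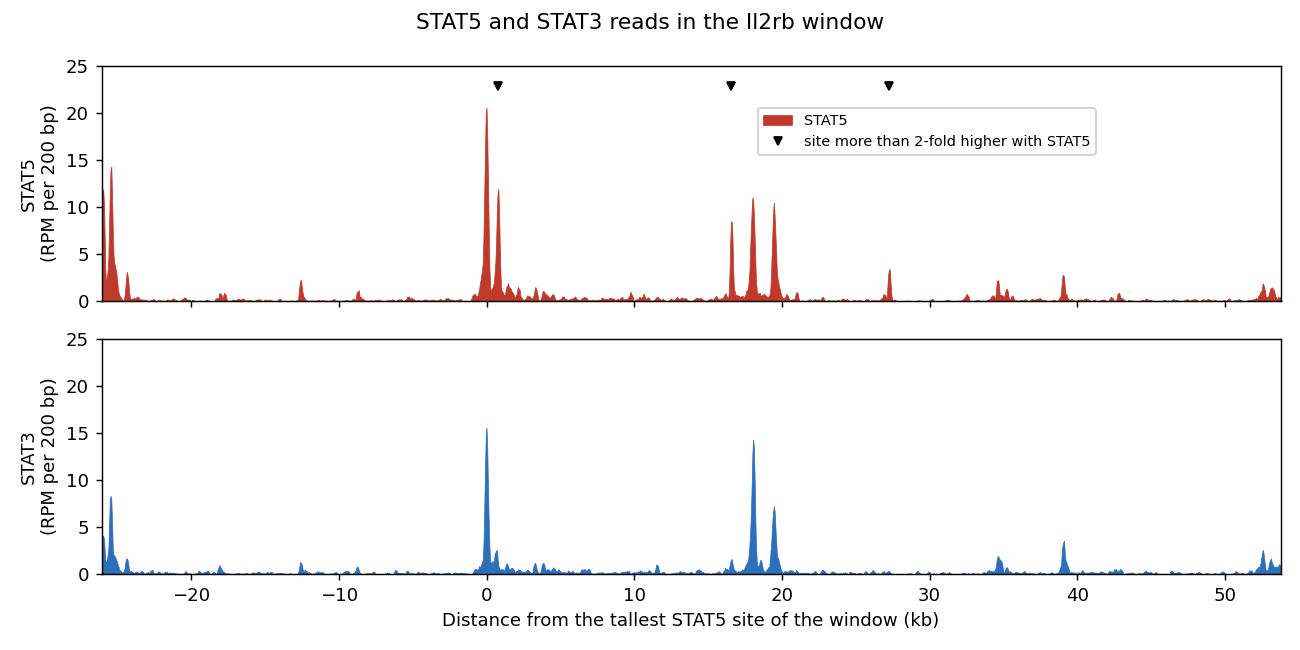
RPM in 200 bp windows of STAT5 (upper, red) and STAT3 (lower, blue) in the Il2rb window against distance in kb from its tallest STAT5 site, with triangles at the 3 sites called higher with STAT5. Both libraries peak at 0 kb (517 STAT5 and 420 STAT3 reads) and at 18.1 kb (295 and 406).

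Set among all sites of the genome, those of the Il2ra window reached the top of the STAT5 range at sites with many and at sites with few STAT3 reads. In this window 16 sites had 250 or more STAT5 reads and 5 had 250 or more STAT3 reads. In the Il2rb window 5 sites had 250 or more STAT5 reads and 2 had as many STAT3 reads. Since a site needs 1 RPM in either library, places low in both are not among them.

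**Figure D5:**
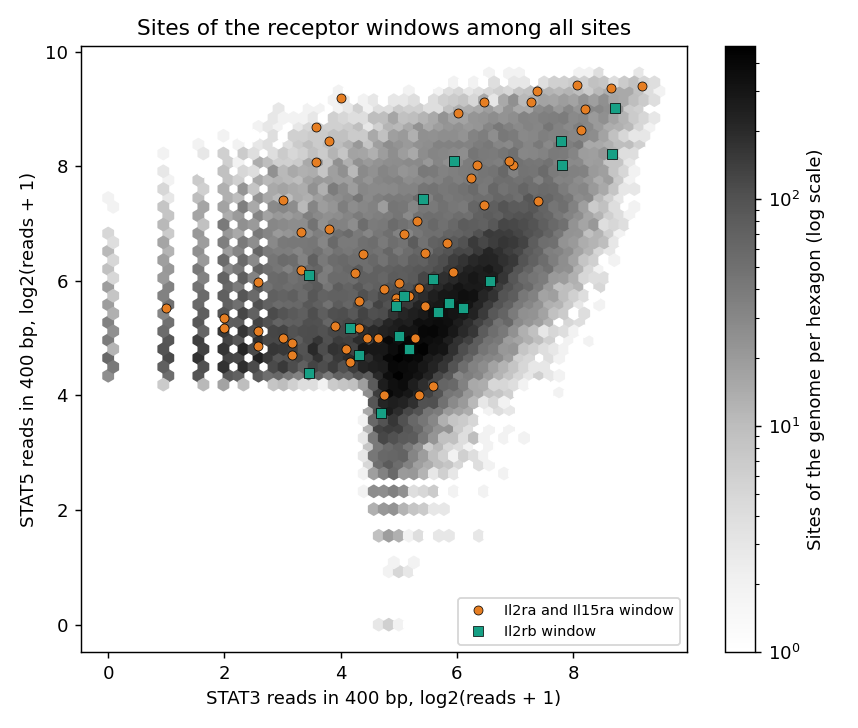
STAT5 reads against STAT3 reads in 400 bp, each as log2(reads + 1), for 91933 sites of the genome (grey hexagons) and for the Il2ra and Il15ra window (orange circles) and the Il2rb window (green squares). Orange circles lie at the top right, with both STATs high, and at the top left, where STAT5 is high and STAT3 low.

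Taken whole, the windows were also above the genome between the sites. Away from any site by at least 400 bp, 200 bp windows averaged 2.77 STAT5 and 2.29 STAT3 reads around Il2ra and Il15ra, against 0.757 STAT5 and 1.17 STAT3 reads over the genome. In the Il2rb window they averaged 2.68 STAT5 and 3.36 STAT3 reads. The level around Il2ra and Il15ra was uneven. Within Il2ra, STAT5 and STAT3 reads outside the 400 bp of each site came to 4.63 and 1.73 RPM per kb. Within Il15ra they came to 0.396 and 0.403 RPM per kb, and after Il15ra to 0.218 and 0.385. Outside the 400 bp of each site the ratio within Il2ra was 2.67 (2.51 to 2.84), as high as with sites included, and upstream of Il2ra it was 2.01 (1.87 to 2.16). The reads outside sites include maxima too close to a taller site to be counted. One of these, 13.4 kb into Il2ra, had 351 STAT5 and 169 STAT3 reads in 200 bp. Whether the other reads outside sites are binding or another property of the loci was not tested, since no input library was analysed here.

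The read distributions of the libraries were displaced at some sites of both windows, as they were at other sites of the genome. Sites with 50 or more reads of each library were compared. The median fragment position differed by 25 bp or more at 7 of 17 sites (41.2%) of the Il2ra and Il15ra window. It did so at 2 of 6 Il2rb sites (33.3%) and at 30.6% of 24197 such sites in the genome. At the 9.20 kb site the STAT3 reads centred 61 bp farther into the gene than the STAT5 reads, and the tallest STAT3 window lay 100 bp from the tallest STAT5 window. At the 12.9 kb site the STAT5 reads centred 43 bp farther than the STAT3 reads. A second maximum stood 500 bp beyond that site, with 351 STAT5 and 169 STAT3 reads in 200 bp. Whether its reads reach into the 400 bp counted was not tested. At 25.3 kb upstream, where both libraries were tallest together, the offset was 8 bp. STAT5 reads took 82% of the positions counted at 9.20 kb, 85.1% at 12.9 kb and 84.1% at 25.3 kb upstream. The ceiling thus limits how far the STAT5 reads can centre from the middle of these sites.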

How the data were processed

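STAT5 and STAT3 chromatin immunoprecipitation reads from Th17 cells were analysed, 1 library each. The authors' deposited files list aligned reads, 1 per line, with chromosome, start, end and strand. Reads are 25 nt long and on mm9, per the submitters' processing notes; the sources used here do not give the aligner or any filters. No position and strand held more than 1 read (0 repeats), so counts have a ceiling. Libraries were amplified for 18 cycles, per the labels' protocols.

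Read 5′ ends were moved 50 bp in the 3′ direction and counted in 200 bp windows, step 50 bp, with Python 3.11.15, numpy 2.4.6, scipy 1.17.1 and pandas 2.3.3. Sites with over 80% of reads on 1 strand were left out. Ratios have exact conditional (Clopper-Pearson) intervals. No p-value was computed with 1 library per antibody. Site finding was tested on simulated data. The members, lists and limits were chosen with earlier results of these data known.

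Named sites were the 8 tallest around Il2ra and Il15ra, the 5 tallest around Il2rb, the 12 called sites with the interval bound farthest from 1, and the tallest of each segment. Alternatives changed height, separation, shift, strand filter, ratio limit, scaling, counting width, positions taken, strands and the caller. Genes other than the members were not placed on mm9, and coordinates were not converted between builds.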

Additional observations from a re-analysis of the deposited data

How the results depend on the processing

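No paired analysis was possible because there is 1 library per antibody, and for the same reason no replicate could be left out. Of 90 recalculations of counts and segment ratios 75 stayed within 1.5 times of a count or the exact interval of a ratio, and 15 moved. STAT5-higher sites numbered 18 to 38 (27 as reported) around Il2ra and Il15ra and 2 to 4 (3 as reported) around Il2rb, and STAT3-higher sites 0 in each of the 15 alternatives that gave such counts. The share over all sites of the genome changed too. It was 16.6% with the 3-fold limit, which gave the 18, and 32.0% with scaling by 10 kb bins without a site, which gave the 38. The 2 around Il2rb came with a separation of 800 bp (26.8% of all sites). STAT3-higher shares over the genome ran from 0.571% to 5.81%. Sites around Il2ra and Il15ra numbered 35 at a minimum of 2 RPM and 30 with a caller that uses local means. Those around Il2rb numbered 33 at 0.5 RPM and 12 at 2 RPM; fewer sites follow from the higher limit itself. Scaling by 10 kb bins without a site lowers STAT3 to 0.729 of its RPM level. It raised the ratio of STAT5 to STAT3 to 4.38 upstream of Il2ra, 3.43 within Il2ra, 2.29 between the genes, 1.42 within Il15ra, 0.777 after Il15ra, 3.61 in that whole window and 1.81 in the Il2rb window. Reads outside sites alone gave 2.01 upstream of Il2ra, 2.67 within it, 2.12 in the whole window and 1.14 in the Il2rb window. Those reads include maxima too close to a taller site to be counted, and the cause of the change was not tested. Of 190 recalculations at named sites 1 reversed, the Il2rb site on chromosome 15 at 78324201, at 1.15 under the bin scaling. Depth limits sites with under 10 reads of a library, and the ceiling of 800 reads in 400 bp limits the tallest.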

Other observations

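Some maxima lay just beyond the windows or too close to a taller site to be counted. On chromosome 15, 199 bp before the Il2rb window, a site had 393 STAT5 and 255 STAT3 reads in 200 bp, a ratio of 1.78 (1.52 to 2.10). At 201 bp inside the window edge a further maximum, found with a separation of 200 bp, had 213 STAT5 and 85 STAT3 reads (2.90, 2.24 to 3.77). On chromosome 2 the nearest site outside, 4349 bp before the window, had 25 STAT5 and 39 STAT3 reads in 200 bp. On GRCm38.p6 the protein-coding genes before Il2ra are Pfkfb3 and Rbm17, and the one after Il15ra is Fbh1.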
